A study of Mus musculus with 9 samples.

Results

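This comparison set the response to castration in old specimens against the response in young bone, as the difference between their log ratios. It rested on 6 of the series' 9 arrays, 3 from old mice and 3 from young bone, assigned by their labels. The comparison and its gene lists were chosen with earlier results of these data known, so the counts below are not independent support for any pattern. All mice were C57BL/6, a common inbred laboratory strain, and no transgene or other agent was named. Every group carried the same operation: animals were castrated at 7 weeks or underwent sham surgery, and each array set RNA of a castrated mouse against that of a matched sham-operated mouse, so that a replicate is a pair of mice. The old mice were 59 weeks old and their specimens are labelled bone marrow. The young mice were 17 weeks old, and their bone and marrow were arrayed apart from each other. The design text mentions separation of marrow only for the young mice, and the extraction protocol speaks of pulverised bone, so it is not stated how much bone the old specimens held. Age, time since the operation and specimen type therefore differ together between the groups and cannot be told apart. The 3 arrays of young marrow entered the fit for its estimate of the spread and of a common dye term, and are quoted for orientation.

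Castration removes the testes, the main source of androgens. Androgens, and the oestrogens made from them, restrain bone resorption by osteoclasts and sustain bone formation by osteoblasts, and they maintain skeletal muscle mass. After androgen loss bone is lost and marrow fat commonly increases. Long bones taken for RNA carry, besides osteoblasts, osteocytes and osteoclasts, the marrow inside and remnants of muscle, tendon and fat on the outside.

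The arrays were of the 2-colour kind, and the values are deposited log ratios, taken here as log2 because the base is not stated. On old replicate 2 and young bone replicate 3 the dyes were swapped, with the castrated mouse in Cy3. The direction of the deposited ratio is also not stated. The labels name every array as the castrated mouse hybridised against the sham mouse, so the values were read as castrated over sham, here called the castrated-over-sham reading, which is the likely but not settled direction. The counts, the list medians and most named features are also given with the swapped arrays multiplied by -1, the channel reading, which holds if the deposited ratio is Cy5 over Cy3. The 6 unswapped arrays are the same under both. Young bone replicates 2 and 3 correlated at r = -0.10 across features. The other pairs within the 2 groups had r from 0.15 to 0.55, so these correlations did not settle the direction. As deposited, the B lineage list below had a positive median on every array. It was 0.84, 0.74 and 0.685 on the swapped old, young bone and young marrow arrays. The granulocyte median was negative on every array, with -0.58, -0.395 and -0.56 there. Both lists thus kept their sign only under the castrated-over-sham reading. The cell cycle list went the other way in young bone, with 0.18 on the swapped array against -0.02 and -0.37. A difference below is the old-minus-young-bone coefficient from limma, in log2 units, with its standard error (SE). It equals the old mean minus the young bone mean where all 6 values exist. Where a value is missing, it is adjusted for the dye term, on which the young marrow arrays also bear. A positive difference means a higher castrated-to-sham ratio in the old specimens, not a higher level. Because the ratios hold no level, the labelled tissue could not be checked by the level of its markers, and in bulk tissue fewer cells of a type and less RNA per cell cannot be told apart.

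Arrays held between 8290 and 10995 values, and 8885 features could be tested. The spread of the log ratios (SD) lay between 0.192 and 0.294 on 8 arrays and was 0.455 on old replicate 1, whose ratios therefore ran to larger sizes than those of the other arrays. The number of arrays limits the precision: the median SE of a difference was 0.155.

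A single feature, Xist, passed the test across all features. That is 0.0113% of the features tested under the castrated-over-sham reading, at a Benjamini-Hochberg adjusted p under 0.05. No feature passed under the channel reading (0%) or on the unswapped arrays alone (0%), where the smallest adjusted p from limma were 0.449 and 0.758. At an unadjusted p under 0.05, limma called 589 features under the castrated-over-sham reading, 363 under the channel reading and 357 on the unswapped arrays, where chance alone gives about 444. Of the 589, 320 (3.6% of all) were higher in the old specimens and 269 (3.03%) lower. Under the channel reading 160 (1.8%) were higher and 203 (2.28%) lower. The difference had the same sign under both readings for 5124 features, or 57.7%. By sign alone, 3884 of the 8885 differences were positive (43.7%) and 5001 negative under the castrated-over-sham reading. Under the channel reading 4357 were positive. All counts of gene lists below are at an unadjusted p, and no named gene but Xist passed the adjusted threshold. Each such count is to be set against the share of all features given above for its reading and direction.

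Xist, the non-coding RNA that coats and silences an X chromosome in female cells, had ratios of -1.19, -1.13 and -0.98 in old replicates 1, 2 and 3. In young bone replicates 1, 2 and 3 it had 0.07, 0.26 and -0.25. Every old array, the swapped array included, lay far below every young bone array, and the 3 young bone arrays lay around 0. Its difference was -1.13 (SE 0.134), with an adjusted p of 0.045 from limma. The young marrow arrays read -0.17, -0.39 and -0.16, nearer to young bone than to the old specimens. Under the channel reading the difference was -0.54 with an unadjusted limma p of 0.163, and on the unswapped arrays it was -1.25. With any 1 of the 6 arrays left out its difference stayed between -1.22 and -1.04. Its adjusted p stayed under 0.05 only without old replicate 3, and was 0.0719, 0.183, 0.412, 0.133 and 0.149 without old replicate 1, old replicate 2 and young bone replicates 1, 2 and 3. The call thus held in a minority of these fits, while the direction held in each.

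The labels do not name the sex of the mice, but castration as removal of the testes implies males. The ratios hold no level, so it cannot be told whether Xist lay near background on these arrays. Other genes of the sex chromosomes were read beside Xist. Tsix, the antisense transcript of the Xist locus, read -0.11 and -0.09 on the 2 old arrays that measured it and 0.11, 0.04 and -0.31 in young bone, a fitted difference of -0.02. The Y-linked genes had no common direction: the differences were 0.45 for Uty, -0.22 for Kdm5d and 0.03 for Eif2s3y, and 0.16, 0.13 and -0.03 under the channel reading. Uty, a histone demethylase relative, read 1.01, 0.37 and 0.16 in the old specimens and -0.15, 0.40 and -0.07 in young bone. These groups overlapped. Of X-linked genes, Ddx3x, an RNA helicase, read -0.31, 0.21 and -0.23 against 0.08, 0.16 and 0.17. Only the swapped old array lay above 0 among the old values, and the difference was -0.25. It was -0.27 under the channel reading, where the groups did not overlap, and -0.39 on the unswapped arrays (unadjusted limma p 0.0441). Kdm6a had -0.0067 and -0.19 in its 2 features, both with overlap. Their part in the Xist ratio was not tested.

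Mgp, matrix Gla protein, an inhibitor of mineral deposition made by cartilage and vessel walls, followed Xist most closely in rank. It read -1.55, -1.21 and -0.80 in the old specimens and 0.13, 0.22 and -0.16 in young bone. All 3 old arrays were low and all 3 young bone arrays were near 0, with no overlap. The difference was -1.25 (SE 0.182), the limma adjusted p of 0.138 missed the threshold, and the channel reading gave -0.55. Scaling every array to the same median absolute deviation, which shrinks the wide old replicate 1, turned the order round: Mgp then passed with an adjusted limma p of 0.00708 and Xist did not, at 0.0536.

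In the other direction the most extreme feature belonged to Malat1, an abundant nuclear non-coding RNA. It read 1.76, 0.86 and 1.25 in the old specimens and 0.55, 0.46 and -0.22 in young bone. Old ratios were all higher than young bone ratios. The difference was 1.03 (SE 0.172, adjusted limma p 0.311) and 0.31 under the channel reading. The other features of the gene lay on the same side, with 0.84 and 0.42. The first of these overlapped between the groups, with 2.30, 0.25 and 0.91 against 0.28, 0.71 and -0.04.

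The further features of most extreme statistic did not pass either, with adjusted p from limma between 0.476 and 0.641. Swap70, a signalling protein of B cells and mast cells, read 0.51, 0.67 and 0.65 in the old specimens and -0.28, 0.07 and -0.29 in young bone. Plcb1, a phospholipase C, read 0.75, 0.54 and 0.78 against 0.12, 0.14 and -0.09. Spink5, a protease inhibitor, read 0.98, 0.66 and 0.81 against 0.32, 0.28 and -0.18. In each of these genes the 3 old values lay close together above all young bone values, with differences of 0.78, 0.63 and 0.68. Their channel-reading differences were smaller, at 0.14, 0.21 and 0.12. Among the low ones, Cish, the feedback inhibitor of cytokine receptor signalling through STAT5, read -0.61, -0.52 and -1.43 against -0.04, 0.12 and 0.24. Its difference was -0.96, and -0.45 under the channel reading. Mthfd2l, a mitochondrial folate enzyme, differed by -0.57 and Rpl41, a ribosomal protein, by -0.63, both with old values all negative and young bone values all positive.

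**Figure D1:**
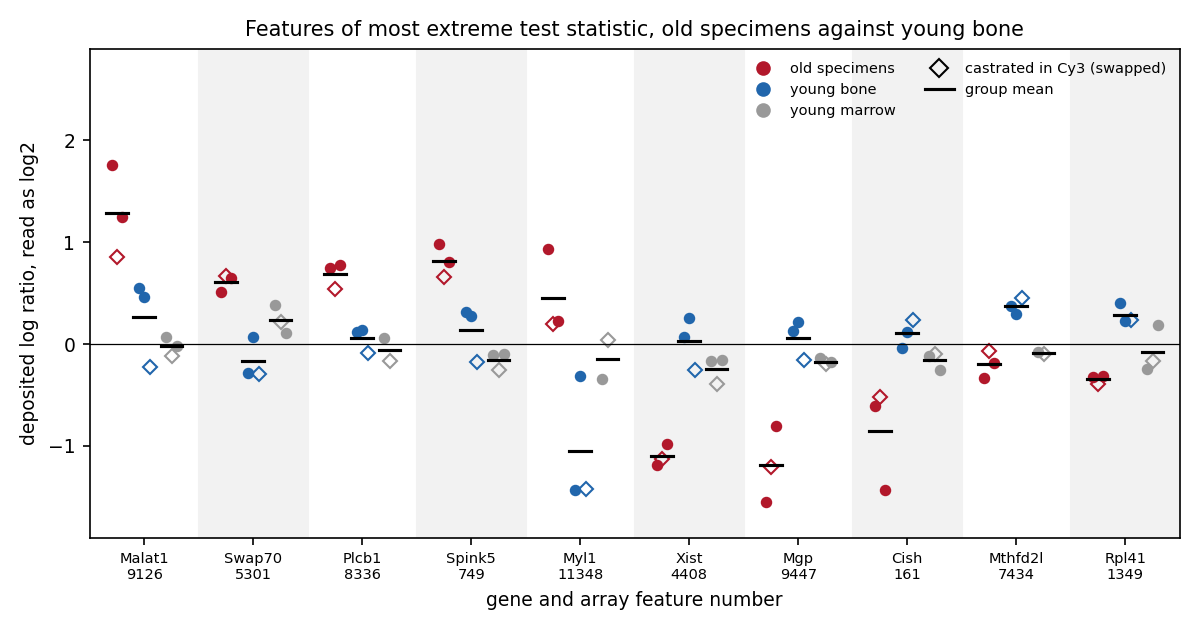
Deposited log ratios (y axis, log2, read as castrated over sham) of the 10 features of most extreme test statistic on each array, with old specimens in red, young bone in blue and young marrow in grey, open diamonds for swapped arrays and black bars for group means. In each panel the 3 old points lie to one side of the 3 young bone points, and Xist alone passed the test, with a difference of -1.13.

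Genes of skeletal muscle leaned towards higher ratios in the old specimens. Of 79 muscle genes listed, 21 were measured by 28 features, and 12 of these (42.9%, against 3.6% of all features) were higher at an unadjusted p under 0.05 and 0 lower. The median difference of the 28 was 0.40, beside -0.03 for all features, and 21 of the 28 were positive (75%, against 43.7% of all). None passed the adjusted threshold, and under the channel reading none reached an unadjusted p under 0.05, with a median of 0.18 and 24 positive. On the unswapped arrays the median was 0.44. Of the 26 muscle features with all 6 values, 11 had old ratios entirely above young bone ratios, where 3.15% of all such features did.

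The muscle list moved on both sides of 0. Its median ratio was 0.23, 0.05 and 0.18 on old replicates 1, 2 and 3, and -0.49, -0.08 and -0.17 on young bone replicates 1, 2 and 3. The old specimens thus had slightly positive and young bone negative castrated-to-sham ratios, and the array with the lowest value was young bone replicate 1. The young marrow medians were -0.08, 0.05 and 0.06. Without young bone replicate 1 the list's median difference was 0.23, and it was larger than that without any other of the 6 arrays. The part of adhering muscle in the differences of other genes was not tested.

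**Figure D2:**
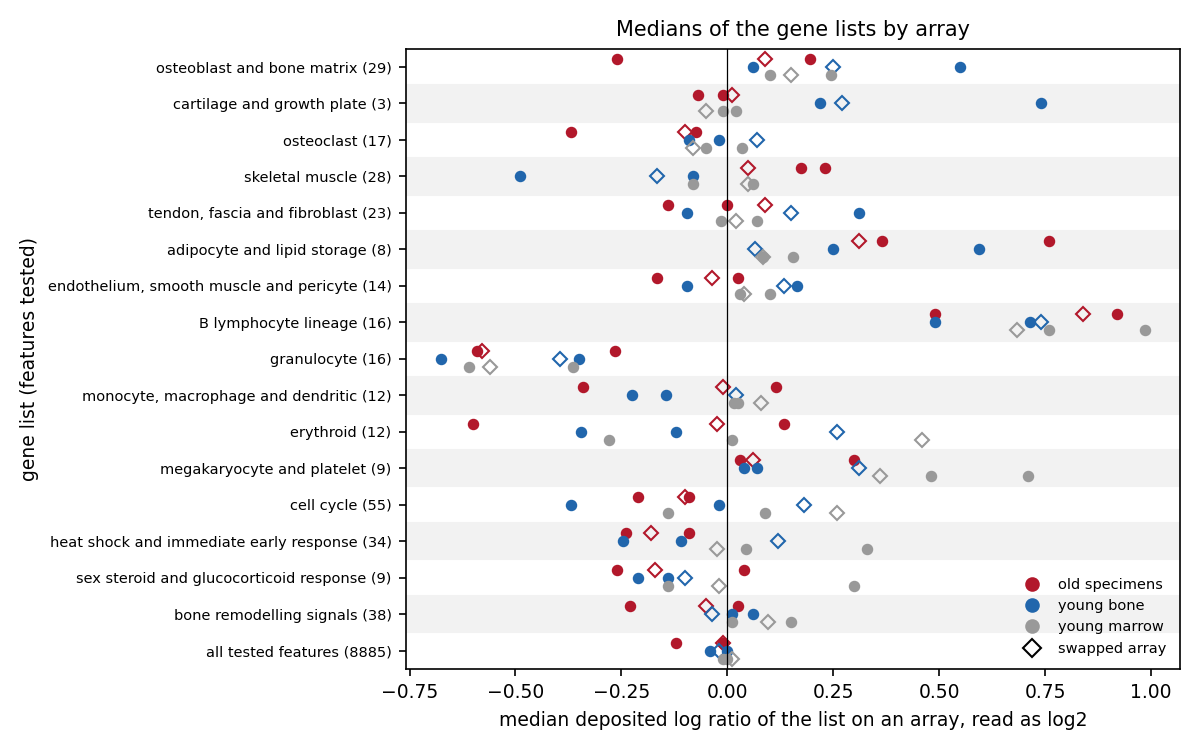
Median deposited log ratio (log2) of each gene list on each array, with old specimens in red, young bone in blue and young marrow in grey, open diamonds for swapped arrays. The muscle list shows the young bone arrays at -0.49, -0.08 and -0.17, all below the old arrays at 0.23, 0.05 and 0.18.

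The muscle features with the smallest p were those of the contractile apparatus and of its energy supply. Ckm, muscle creatine kinase, which regenerates ATP from phosphocreatine, read 1.56, 0.42 and 0.55 in the old specimens and -0.87, -0.12 and -0.53 in young bone. Mylpf, the regulatory myosin light chain of fast fibres, read 1.15, 0.42 and 0.50 against -1.31, -0.19 and -0.48. Myl1, an essential myosin light chain of fast fibres, read 0.93, 0.20 and 0.23 against -1.43, -0.31 and -1.42. All 3 genes were positive on every old array and negative on every young bone array. The differences were 1.35 for Ckm (SE 0.276), 1.35 for Mylpf (SE 0.277) and 1.51 for Myl1 (SE 0.304), each with an adjusted limma p of 0.518. The channel reading kept the sign at 0.72, 0.75 and 0.43. Mb, myoglobin, the oxygen store of muscle, had the widest difference, 1.66 (SE 0.419, adjusted limma p 0.694), from 1.70, 0.11 and 0.39 against -1.69, -0.21 and -0.89. Old replicate 1 and young bone replicate 1 lay at the extremes, and old replicate 2 was close to 0.

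Neb, nebulin, the ruler of the thin filament, read 1.53, 0.39 and 0.60 against -0.72, 0.34 and -0.11, a difference of 1.0. The 2 features of Tpm2, the beta tropomyosin, differed by 0.74 and 0.68, and Eno3, the muscle enolase, by 0.84. The channel reading gave 0.67 for Neb, 0.54 and 0.57 for Tpm2 and 0.37 for Eno3. In all of these old values lay above young bone values, for Neb and Eno3 by a narrow margin. The glycolytic enzymes Aldoa, with 0.51 and 0.38, and Pfkm, with 0.38, had smaller differences, and here the ratios were all negative in young bone and on both sides of 0 in the old specimens. Under the channel reading Aldoa had 0.23 and 0.27, and Pfkm only 0.04. Fhl1, a LIM-domain protein of muscle, had 0.82 with overlapping groups, since young bone replicate 2 read 0.32, and 0.21 under the channel reading. Other members did not reach an unadjusted p under 0.05. The 3 features of Acta1, skeletal actin, had 0.44, 0.32 and 0.39, and Des, desmin, had 0.41. The regulator Myod1 had -0.05, the acetylcholine receptor subunit Chrna1 -0.10, Dmd -0.10 and Tpm1 -0.11.

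**Figure D3:**
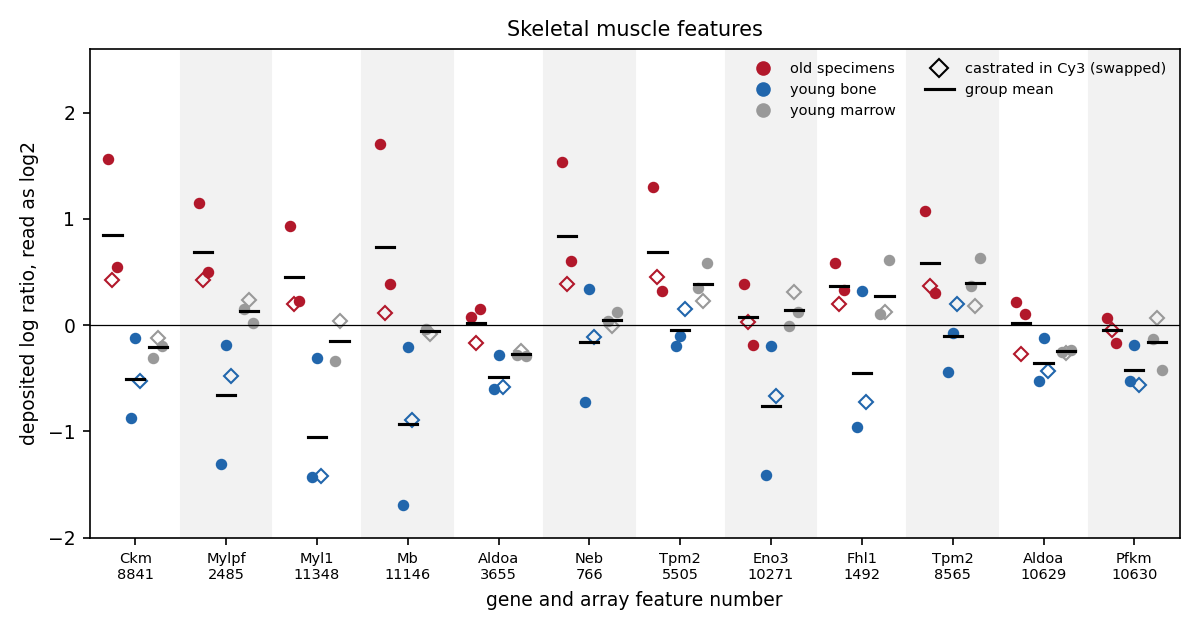
Deposited log ratios (log2, read as castrated over sham) of the 12 muscle features with an unadjusted p under 0.05, by array, with old specimens in red, young bone in blue, young marrow in grey, open diamonds for swapped arrays and black bars for group means. Ckm, Mylpf, Myl1 and Mb are above 0 on all old arrays and below 0 on all young bone arrays.

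The start regions of the 3 muscle features of smallest p are shown because muscle promoters are known for E-boxes, the binding sequence of the MyoD family. The sequences are from RefSeq on GRCm38.p6, at the first start listed for each gene, from 250 bases before to 50 after the start. They run 5′ to 3′ on the gene's strand: Ckm at chr7:19410844-19411143 (+), Mylpf at chr7:127211358-127211657 (+) and Myl1 at chr1:66945007-66945306 (-). Capitals mark the E-box CAGCTG, a palindrome that reads the same on both strands.
Ckm: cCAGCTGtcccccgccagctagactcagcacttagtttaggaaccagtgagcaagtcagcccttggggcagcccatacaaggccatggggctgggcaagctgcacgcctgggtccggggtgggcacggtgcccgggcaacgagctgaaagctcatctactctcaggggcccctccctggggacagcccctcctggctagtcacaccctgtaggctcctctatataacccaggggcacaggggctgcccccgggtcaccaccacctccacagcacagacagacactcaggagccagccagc
Mylpf: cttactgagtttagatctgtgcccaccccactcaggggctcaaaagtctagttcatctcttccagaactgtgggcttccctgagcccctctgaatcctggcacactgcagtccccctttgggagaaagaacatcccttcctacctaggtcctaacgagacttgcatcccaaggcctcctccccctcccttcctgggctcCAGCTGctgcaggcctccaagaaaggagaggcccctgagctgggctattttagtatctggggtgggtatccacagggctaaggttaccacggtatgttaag
Myl1: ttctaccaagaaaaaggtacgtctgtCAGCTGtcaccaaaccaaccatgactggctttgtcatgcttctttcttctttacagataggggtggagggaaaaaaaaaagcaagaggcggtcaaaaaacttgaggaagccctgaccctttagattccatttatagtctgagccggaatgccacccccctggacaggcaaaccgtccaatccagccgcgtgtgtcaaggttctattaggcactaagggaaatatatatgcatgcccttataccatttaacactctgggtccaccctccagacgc
Each held 1 such E-box, and neither a MEF2 site nor a CArG box by the patterns searched. Of the 21 measured muscle genes 19 had a listed start region, and 9 of those 19 (47.4%) held the E-box, against 4353 of 27025 start regions of this length (16.1%). A CArG box was in 3 of the 19 (15.8%, against 1.57%) and a MEF2 site in 1 (5.26%, against 3.26%). These matches describe the sequences and not bound sites.

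Genes of osteoblasts and bone matrix leaned the other way. Of 57 genes listed, 23 were measured by 29 features: 7 (24.1%, against 3.03% of all) were lower in the old specimens at an unadjusted p under 0.05. Another 2 were higher (6.9%, against 3.6% of all). The 7 include Mgp, described above, and 2 features of Fn1, beside Lox, Tnc, Serpinh1 and Col1a1. By sign alone 19 of the 29 were lower and 10 higher (34.5%, against 43.7% of all features). The median difference was -0.19, and -0.15 under the channel reading, where none reached an unadjusted p under 0.05. Of the 27 features with all 6 values, 5 had old ratios entirely below young bone ratios, where 4.75% of all features did, and 1 entirely above. The list's median ratio was -0.26, 0.09 and 0.20 on the old arrays and 0.06, 0.55 and 0.25 on the young bone arrays. The highest was young bone replicate 2, and old replicate 3 lay above young bone replicate 1. The young marrow medians were 0.10, 0.15 and 0.245. The count of 7 rested on single arrays: it was 4 without old replicate 1, 3 without young bone replicate 2 and 11 without young bone replicate 1. The median was -0.088 without old replicate 1, -0.083 without young bone replicate 2, -0.30 without young bone replicate 1 and -0.36 without old replicate 3.

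Col1a1, the main chain of type I collagen and the most abundant bone protein, read -0.20, 0.30 and 0.06 in the old specimens and 0.42, 1.74 and 0.32 in young bone. Young bone was higher throughout, by a narrow margin on replicates 1 and 3 and a wide one on replicate 2. The difference was -0.77 (SE 0.341, unadjusted limma p 0.0452), and it was of the same size under the channel reading, -0.76. Serpinh1, the collagen chaperone of the endoplasmic reticulum, read -1.09, -0.15 and 0.21 against 0.05, 1.28 and 0.67, a difference of -1.01 with overlapping groups, and of -0.46 under the channel reading. Sparc, osteonectin, and Col1a2, the second chain of type I collagen, overlapped between the groups, with differences of -0.69 and -0.71 that missed an unadjusted p of 0.05, and -0.53 and -0.68 under the channel reading. In all 4 the highest value was that of young bone replicate 2. The young marrow means of Col1a1, Serpinh1, Sparc and Col1a2 were 0.66, 0.86, 0.61 and 0.44. The young bone means were 0.83, 0.67, 0.57 and 0.89, and the old means 0.05, -0.34, -0.11 and 0.18. Each young marrow mean thus also lay above the old mean.

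Among genes that assemble or link the matrix, Lox, the enzyme that crosslinks collagen, read -0.38, -0.33 and -0.09 against 0.03, 0.72 and 0.16. Its old values were all negative and its young bone values all positive, and the difference was -0.57 (SE 0.184, adjusted limma p 0.694), and -0.24 under the channel reading. Tnc, tenascin C, differed by -0.71 with overlapping groups, and by -0.38 under the channel reading. Fn1, fibronectin, differed by -0.51 and -0.43 in its 2 features, and the first read -0.34, -0.03 and -0.30 against 0.51, -0.08 and 0.42. The channel reading left -0.21 and -0.05, and the young marrow mean of the first feature was -0.73, below both groups. The 2 features called higher were those of Col5a2, a type V collagen chain, with 0.44, and Timp3, an inhibitor of metalloproteinases, with 0.37, and they had 0.07 and 0.11 under the channel reading. Mmp13, the collagenase of osteoblasts and hypertrophic cartilage, had 0.34, and -0.15 under the channel reading. Plod2, a collagen lysyl hydroxylase, had 0.36 in 1 feature and -0.30 in the other, so that the gene had no common direction. No feature of Mmp13 or Plod2 reached an unadjusted p under 0.05.

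Timp2, another metalloproteinase inhibitor, was outside the lists and was picked after its values were seen. Its 3 features differed by -0.65, -0.77 and -0.73, and the second read -0.44, -0.30 and -0.02 in the old specimens and 0.22, 0.92 and 0.40 in young bone. The groups did not overlap in any of the 3. The channel reading gave -0.34, -0.30 and -0.31, and the smallest adjusted limma p was 0.641. The features share a target gene and are not replicates of each other.

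**Figure D4:**
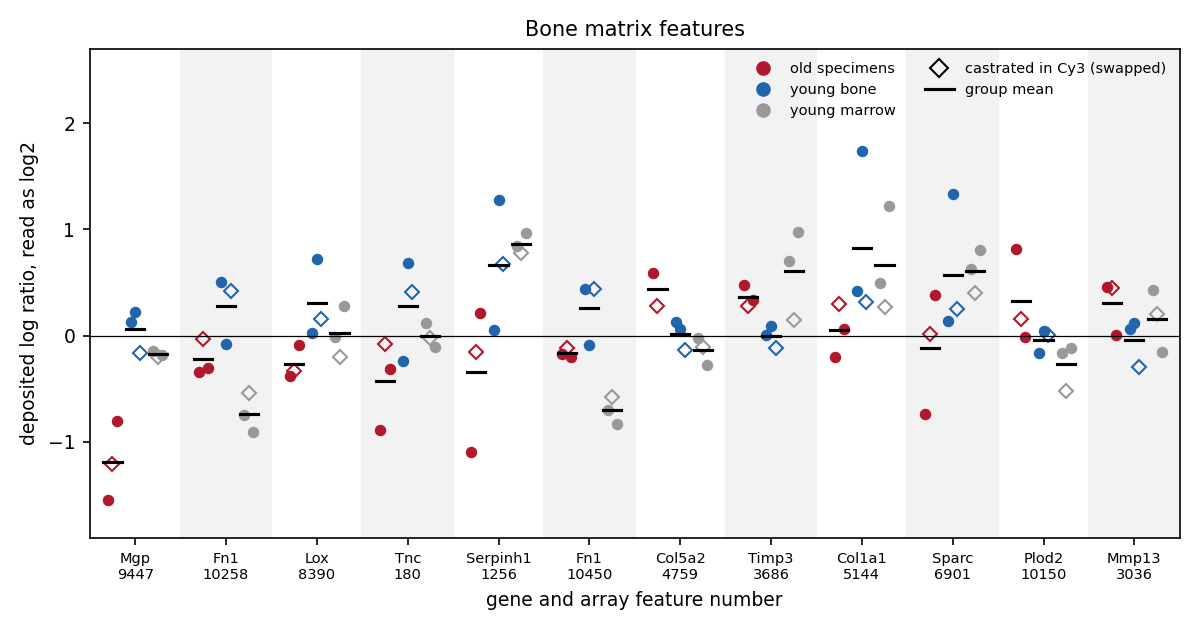
Deposited log ratios (log2, read as castrated over sham) of the 12 osteoblast and bone matrix features of smallest p, by array, with old specimens in red, young bone in blue, young marrow in grey, open diamonds for swapped arrays and black bars for group means. For Col1a1 the 3 young bone points lie at 0.42, 1.74 and 0.32, above the old points at -0.20, 0.30 and 0.06.

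Cartilage was measured by only 3 features of 2 genes. Sox9, the transcription factor that directs chondrocyte formation, read -0.44, 0.01 and -0.01 in the old specimens and 0.95, 0.32 and 0.27 in young bone. The second feature read -0.07, 0.01 and -0.05 against 0.74, 0.22 and 0.12. Old values were near or below 0 and young bone values above 0 in both, with differences of -0.66 and -0.40, and of -0.49 and -0.32 under the channel reading. Prg4, lubricin of the joint surface, differed by -0.02.

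Osteoclast genes, 17 features of 12 genes, had a median difference of -0.09, and -0.01 under the channel reading. A single feature, of Fos, was lower at an unadjusted p under 0.05 (of 17, against 3.03% of all). It had a fitted -0.88 from the 2 old arrays that measured it and -0.63 under the channel reading. The other Fos feature had -0.35 (-0.27 under the channel reading) and was not called. Fos is also in the heat shock and immediate early list, where the same feature is counted among the 4 lower. Under the channel reading 1 feature of the list was higher (of 17, against 1.8% of all), that of Mitf, a transcription factor of osteoclasts, with 0.35. Mmp9, a gelatinase of osteoclasts and neutrophils, had -0.28 (0.09 under the channel reading) and Atp6v1e1, a proton pump subunit, -0.24 (-0.11). Traf6, the adaptor of the RANK receptor, had 0.83 in the feature of smallest p, where old replicate 1 read 2.17 and old replicate 3 -0.15. Its other features had -0.34, 0.13 and 0.09, so the gene had no common direction. Signals that govern bone remodelling were measured by 38 features of 24 genes, with a median of -0.05. At an unadjusted p under 0.05, 1 was higher and 3 lower (2.63% and 7.89%, against 3.6% and 3.03% of all). In the channel reading 1 was lower (against 2.28% of all), a feature of Ctnnb1, beta-catenin, with -0.45, and the median was -0.08. Csf1, the growth factor of osteoclast precursors, read -0.60, -0.14 and -0.37 against 0.01, 0.05 and -0.06, a difference of -0.37 without overlap, and -0.32 under the channel reading. Fgfr1, a fibroblast growth factor receptor, had -0.75 with overlapping groups, and -0.32 under the channel reading.

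Of the other tissues that adhere to bone, fat was measured by 8 features of 8 genes. At an unadjusted p under 0.05, 3 of the 8 were higher (against 3.6% of all features) and 0 lower, and under the channel reading none was called. By sign 6 of the 8 were higher (75%, against 43.7% of all), with a median of 0.21 and of 0.12 under the channel reading. Scd1, the desaturase that makes monounsaturated fatty acids, read 1.33, 1.27 and 1.69 in the old specimens and 0.86, 0.90 and 0.91 in young bone. The ratio was thus well above 0 on all 6 arrays and higher on the old ones, with a difference of 0.54 (SE 0.158, unadjusted limma p 0.00595) and 0.30 under the channel reading. Thrsp, a regulator of fatty acid synthesis, had 0.46, Fabp4, the fatty acid binding protein of adipocytes, 0.40, and Car3, an adipocyte and muscle carbonic anhydrase, 0.46. The groups overlapped for Fabp4 and Car3. For Thrsp the lowest old value was 0.14, beside a highest young bone value of 0.13. The channel-reading values of Thrsp, Fabp4 and Car3 were 0.38, 0.10 and 0.33, and Car3 had positive ratios on all 6 arrays. The other members were near 0 or lower: Lpl, lipoprotein lipase, had -0.28, Acly, the enzyme that makes cytosolic acetyl-CoA, -0.15, and the genes of triglyceride synthesis and breakdown Dgat1 and Pnpla2 had 0.02 and 0.01.

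Tendon, fascia and fibroblast genes, 23 features of 17 genes, gave no feature at an unadjusted p under 0.05 under the castrated-over-sham reading. Under the channel reading 4 of the 23 were lower (against 2.28% of all features) and 0 higher. The median was -0.09 under the castrated-over-sham reading and 0.02 under the channel reading. The 4 were features of Thbs2, Pdgfra and Ccdc80, from -0.46 to -0.63. A further feature of Thbs2 had 0.02 under the channel reading. Col3a1, type III collagen, stood at 0.49, 0.36 and 0.29 in its 3 features, opposite in sign to type I collagen, while Gas1 had -0.48 and Pdgfrb -0.32, the latter 0.18 under the channel reading. For endothelium, smooth muscle and pericytes, 1 feature was higher and 2 lower of 14 (against 3.6% and 3.03% of all), none was called under the channel reading, and the median changed sign, from -0.17 to 0.08 under the channel reading. Kdr, a receptor of vascular endothelial growth factor, had 0.33 and 0.30 without overlap, and 0.22 and 0.13 under the channel reading. Stab1, a sinusoidal scavenger receptor, had -0.41 and Cspg4, the pericyte proteoglycan NG2, -0.55, both with overlap, and -0.21 and -0.25 under the channel reading. Connective tissue and vessels thus had members on both sides.

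Of marrow cells, B lineage genes had a median of 0.10 over 16 features, with 2 higher at an unadjusted p under 0.05 (against 3.6% of all) and 0 lower. The channel-reading median was -0.01, with 1 higher, Cd79b, a chain of the B cell receptor, at 0.48, and 1 lower, a feature of the repressor Bach2, at -0.49. Cr2, the complement receptor of mature B cells, read 0.33, 0.39 and 0.45 in the old specimens and -0.51, -0.13 and -0.02 in young bone, positive on every old array and negative on every young bone array. The difference was 0.61 (SE 0.148, adjusted limma p 0.641), and 0.34 under the channel reading. Pou2af1, a B cell coactivator, was positive on all 6 arrays, with 0.96, 1.22 and 1.15 against 0.79, 0.72 and 0.65, a difference of 0.39 that shrank to 0.01 under the channel reading. Granulocyte genes had 1 higher and 1 lower of 16 (6.25% each, against 3.6% and 3.03% of all). These were Slpi at 0.38 and Mmp8, the neutrophil collagenase, at -0.49, with 0.04 and -0.39 under the channel reading. There, both features of Il1r2, the decoy receptor of interleukin 1, were higher, with 0.43 and 0.49, against 0.25 and 0.26 under the other reading. Of 12 monocyte, macrophage and dendritic features 1 was higher (8.33%, against 3.6% of all). This was H2-Eb1, a class II antigen-presenting chain, with 0.43 and with 0.51 under the channel reading. There, Mpeg1, perforin-2 of macrophages, was also higher, with 0.36. Of 12 erythroid features 1 was lower (8.33%, against 3.03% of all), a feature of Trim10 with -0.32 (-0.09 under the channel reading). The other Trim10 feature had -0.32, and 0.25 under the channel reading. Of 9 megakaryocyte features none was called under the castrated-over-sham reading. Itga2b, the platelet integrin chain, was higher under the channel reading by 0.63 (unadjusted limma p 0.0114), against 0.37 under the other. The erythroid median was -0.12, and 0.03 under the channel reading.

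Cell cycle genes, 55 features of 32 genes, had none at an unadjusted p under 0.05 under either reading. Under the castrated-over-sham reading 41 of the 55 were negative, and under the channel reading 47 were positive. Of all 8885 features 5001 and 4357 were. The median of the cell cycle list turned from -0.09 to 0.17 with the reading. The heat shock and immediate early genes showed the same turn, with -0.18 and 0.09, and 4 of 34 features (11.8%, against 3.03% of all) were lower under the castrated-over-sham reading and 0 higher. With the swapped arrays turned, 0 were lower and 1 was higher, Hspa5, a chaperone of the endoplasmic reticulum, with 0.44. Egr1, an immediate early transcription factor, read -0.53, -1.73 and -0.22 against 0.17, 0.49 and 0.51. All old values were negative and all young bone values positive, but the lowest is the swapped array, and the difference of -1.22 (SE 0.287) became 0.28 under the channel reading. Junb, of the same class, read -0.73, -0.28 and -0.07 against 0.45, 0.01 and 0.16, a difference of -0.57, and -0.27 under the channel reading. Such genes respond fast to many stimuli. For sex steroid and glucocorticoid responsive genes, 9 features of 7 genes, none was called under either reading. Tsc22d3, a glucocorticoid-induced leucine zipper protein, had 0.28 and Ncoa4, an androgen receptor coactivator, 0.18, both with overlapping groups.

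Under the channel reading the most extreme features were different ones, and none passed. Eef1a1, the translation elongation factor, had ratios as deposited of -0.18, 0.44 and -0.34 in the old specimens and 0.80, 0.43 and -0.44 in young bone, so that the swapped arrays have the opposite sign to the others of their group. Its difference was -0.88 under the channel reading (adjusted limma p 0.496) and -0.29 under the other. Kctd1 had -0.77, Elf1, an ETS factor of lymphocytes, -0.71, Mocs1 -0.69 and Galk2 -0.83, while the castrated-over-sham fit gave -0.02, 0.02, -0.36 and -0.05. On the high side were both features of Il2rb, the beta chain of the interleukin 2 receptor, with 0.73 each, Rpsa, a ribosomal protein, with 0.66, Ddx41 with 0.89 and Pdzk1ip1 with 0.73. Of these Il2rb kept a sizeable difference under the castrated-over-sham reading, 0.40 and 0.32. The extremes of each reading were smaller in the other. Those of the castrated-over-sham reading all kept their sign under the channel reading. On the high side they ran there from 0.12 for Spink5 to 0.43 for Myl1. On the low side they ran from -0.21 for Rpl41 to -0.55 for Mgp.

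**Figure D5:**
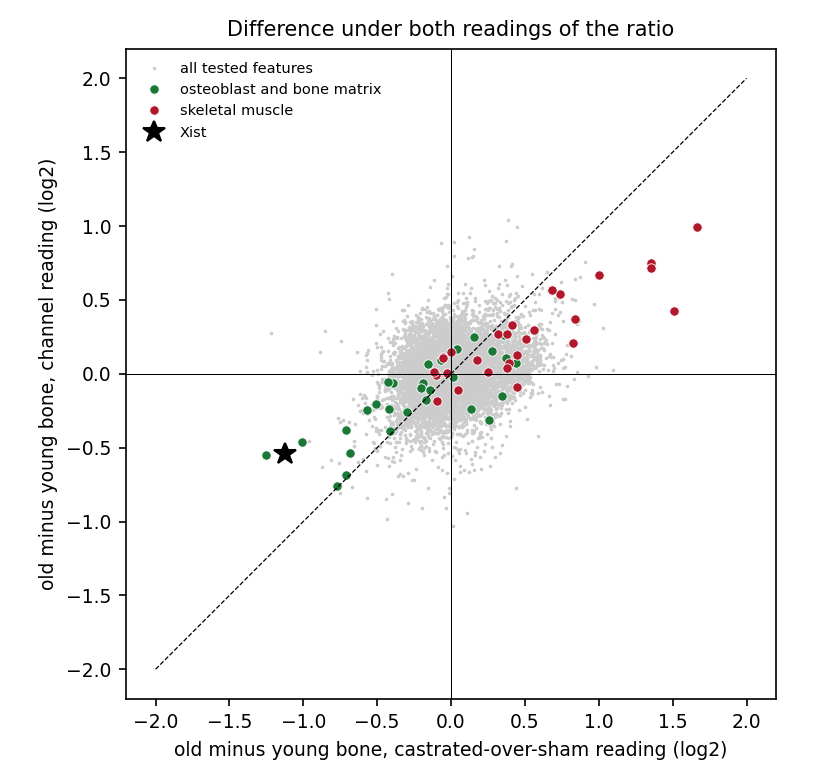
Difference between old specimens and young bone (log2) under the castrated-over-sham reading (x axis) and the channel reading (y axis), with a point for each of the 8885 tested features, muscle features in red, bone matrix features in green and Xist as a star. Xist lies at -1.13 and -0.54, and 57.7% of features have the same sign on both axes.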

How the data were processed

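RNA of castrated and sham-operated mice was hybridised on 9 spotted 2-colour arrays, 3 per group. The authors deposited 1 table of log ratios, read here as log2, with 2 decimals and means near 0 on each array; for background correction, normalisation and spot filters the method is not given in the sources used here. Of 11552 features, 8050 have 1 gene symbol in the platform annotation, 672 several and 2830 none; only the first kind was named.

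Features with at least 2 values in each group and at least 1 swapped array were kept (8885; 7544 with a value on all 9 arrays). limma 3.58.1 in R 4.3.3 (lmFit, eBayes) fitted a term per group and a common dye term on 9 arrays, with 5 residual degrees of freedom; the old-minus-young-bone coefficient was tested and adjusted by Benjamini-Hochberg over all features. The script was tested on simulated data. Each array is a mouse pair, per the labels, so p-values measure the spread between pairs.

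Named were the 5 features of most extreme statistic per direction and reading, up to 12 features of smallest p in the muscle and bone matrix lists, up to 4 in other skeletal or adhering-tissue lists and 2 in the rest. Comparison, lists and rules were chosen with earlier results of these data known. Alternatives covered the reading, dye term, scaling, filter, weights, arrays used and replicate block.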

Additional observations from a re-analysis of the deposited data

Results flagged for a closer look

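Xist differed between the old specimens and young bone by the limma test of the difference itself, at -1.13. In 11 other named features all old arrays had one sign and all young bone arrays the other, a pattern that 129 features showed in all. Their differences were fitted but none passed the adjusted threshold in limma. On the positive side these were Mb at 1.66, Myl1 at 1.51, Ckm at 1.35, Mylpf at 1.35 and Cr2 at 0.61. On the negative side they were Egr1 at -1.22, Timp2 at -0.77, Rpl41 at -0.63, Mthfd2l at -0.57, Lox at -0.57 and Junb at -0.57. The muscle genes among them share arrays and tissue and are not independent of each other.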

How the results depend on the processing

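The count of features past the adjusted threshold was 1 (Xist) and became 0 under the channel reading, with unswapped arrays only, with the 6 arrays of the 2 groups only, without the dye term, with features of 1 value per group admitted and with the replicate block, and 2 with array weights. Leaving out an array gave 0 to 31: 31 without old replicate 3 (28 higher, 3 lower, Xist, Mgp, Malat1, Egr1, Traf6 and Ckm among them) and 0 without any of the other 8. The channel-reading count of 0 became 1 under the castrated-over-sham reading and 570 with array weights, whose estimation stopped short of its tolerance. Deviations of same-numbered old and young bone arrays correlated at -0.04, -0.10 and 0.37. Differently numbered arrays were not compared, so these values cannot tell whether replicate numbers pair the arrays. The block, with 0 features, is only a check.

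The 12 muscle features called higher became 0 under the channel reading and 22 with 1 value per group admitted, and ranged from 8 to 16 without single arrays. The median of all 28 muscle features, 0.40, became 0.18 under the channel reading and 0.23 to 0.57 without single arrays. The 7 bone matrix features called lower became 0 under the channel reading, 12 with the replicate block and 3 to 11 without single arrays. The median of the 29 bone matrix features, -0.19, ranged from -0.36 to -0.083 without single arrays. Both medians kept their sign under each alternative run for them.

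Signs turned under the channel reading for Egr1 (0.28), Traf6 (-0.033), Mmp13 (-0.15), Mmp9 (0.087), Pdgfrb (0.18), Trim10 (0.25, in the feature not called lower), Selp (0.10) and Prg4 (0.01), and under the castrated-over-sham reading for Ddx41 (-0.065), Pdzk1ip1 (-0.03) and Elf1 (0.02). Prg4 was 0.01 with array medians subtracted, 0.019 with equal spread and -0.10 to 0.085 without single arrays, Tsix -0.14 to 0.11 and Tsc22d3 -0.000303 to 0.50. The causes were not tested. Subtracting array medians moved the median difference from -0.03 to -0.0033. With 3 arrays a group and a median SE of 0.155, small differences were not detectable after adjustment.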
